A study of Homo sapiens with 18 samples.

Results

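The comparison set neuroepithelium grown with bFGF from day 6 to day 10 against the day 6 embryoid bodies with which that treatment began. Its members were chosen by the sample titles: 3 arrays of bFGF-treated day 10 cells and 3 arrays of day 6 embryoid bodies, 6 of the 18 arrays of the series. All of them came from H9, an established line of human embryonic stem (ES) cells, and the labels name no altered allele in any group. Embryoid bodies are clusters of ES cells that differentiate in suspension, and they were made from H9 cells of passages 27, 28 and 31 for pools 1 and 2 and of passages 26, 28 and 29 for pool 3. The treated cells are labelled neural epithelium, called primitive in the titles of pools 1 and 3 only, and had 20 ug/ml bFGF (basic fibroblast growth factor, FGF2) between day 6 and day 10. The day 17 treated group is labelled 20 ng/ml, and which unit applied at day 10 is unresolved. A further group of 3 pools, neuroepithelium at day 10 without bFGF, served to say where the treated course differed from the untreated one. Every array held total RNA of 1 pool of 1 cell line. Day 6 pools 1 and 2 carry the same passages, and none are given for the day 10 pools. Apart from the other passages of day 6 pool 3, nothing in the labels says that pools were separate cultures. The p-values therefore measure the spread between these samples, which may be technical.

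FGFs bind receptor tyrosine kinases at the cell surface and act in large part through the ERK kinase cascade, whose feedback inhibitors and ETS-family factors serve as readouts of the pathway. In the early embryo FGF signals take part in neural induction, and bFGF is used in culture both to maintain human ES cells and to expand neural precursors. SOX1 is among the earliest transcription factors restricted to neuroectoderm, and Notch signalling through HES factors keeps neuroepithelial cells in a precursor state.

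SOX1 and HES5, taken as markers of neural progenitors, were higher in the day 10 treated cells than at day 6. SOX1 gave signals of 57.7, 61.5 and 49.5 in the 3 day 6 pools and of 588, 473 and 636 in the 3 treated pools. Every treated pool lay above every day 6 pool, and the log2 change was 3.00 ± 0.31 (standard error, limma adjusted p = 1.09e-05). With its probe sets averaged the change was smaller, at 1.07 (adjusted p = 0.00266). HES5, a Notch effector, read 75.3, 4.76 and 72.1 at day 6 and 1577, 602 and 2591 with bFGF. Treated pool 2 was the lowest and still exceeded all day 6 pools; the log2 change was 4.64 ± 0.75 (adjusted p = 0.000783). Signals are on the deposited linear scale, and every log2 change is on log2(signal + 16), which understates the changes of weak genes. In bulk RNA, fewer cells of a type and less RNA per cell cannot be told apart.

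The Notch effectors HES1, HES4 and HES5 rose together, with values given after the gene counts, and their promoters are printed here because a match to the core of the RBPJ motif, the DNA-binding partner of Notch, lies close before the start in each. The sequences are the 250 bases before the start of HES1 (chr3:194135898-194136147, plus strand), HES4 (chr1:1000098-1000347, minus strand) and HES5 (chr1:2530264-2530513, minus strand), from RefSeq on GRCh38.p14, 5′ to 3′ on the gene's strand. Capitals mark GTGGGAA, or TTCCCAC where it lies on the other strand.
HES1: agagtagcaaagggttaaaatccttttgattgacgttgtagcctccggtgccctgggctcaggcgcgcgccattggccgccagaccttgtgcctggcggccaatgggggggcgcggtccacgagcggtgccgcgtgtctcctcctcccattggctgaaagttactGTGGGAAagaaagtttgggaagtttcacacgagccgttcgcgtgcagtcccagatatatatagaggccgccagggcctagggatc
HES4: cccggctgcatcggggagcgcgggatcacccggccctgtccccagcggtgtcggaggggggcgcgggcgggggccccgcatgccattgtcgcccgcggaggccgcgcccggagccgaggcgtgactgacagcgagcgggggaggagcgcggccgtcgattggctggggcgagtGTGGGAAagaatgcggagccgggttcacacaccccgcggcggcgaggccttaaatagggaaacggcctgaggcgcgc
HES5: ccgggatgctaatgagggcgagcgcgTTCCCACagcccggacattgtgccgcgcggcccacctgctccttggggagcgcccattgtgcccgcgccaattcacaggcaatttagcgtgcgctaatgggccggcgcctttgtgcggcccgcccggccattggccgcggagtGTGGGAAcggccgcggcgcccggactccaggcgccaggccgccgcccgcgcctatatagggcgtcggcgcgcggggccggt
The match began 85 bases before the start in HES1, 77 in HES4 and 81 in HES5, and HES5 held another one that began 224 bases before it. Of the 6 Notch effectors looked up, 5 held a match on either strand in the 300 bases from 250 before to 50 after the start, against 6.248% of all 35116 promoters of that length. NRARP held none. HEY2 and HEYL, whose promoters are not printed, held a match too but were not called higher. The HEY2 estimate was negative, and the values of both are given with the Notch list. A match was therefore not particular to the effectors that rose, and a link between match and change was not tested. A match is a description of the letters and not a measured binding site.

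Across the 19775 genes tested, 1394 (7.05%) passed an adjusted p of 0.05, of which 849 (4.29%) were higher and 545 (2.76%) lower at day 10 with bFGF. Of these 983 changed at least 2-fold, 642 upwards and 341 downwards. The median change over all genes was 0.08, and 1393 of the 1394 had groups of 3 that did not overlap, as did 27.1% of all genes. In the untreated course 737 genes (3.73%) were higher and 522 (2.64%) lower than at day 6; the 2 courses share the day 6 arrays, so their values are only set side by side. Treated pool 2 had raised low signals, with a median signal of 49.5 against 25.2 to 31.8 on the other 5 arrays, and in pool 2 of both groups the ratio of the 3′ to the 5′ probe set of ACTB, a measure of RNA integrity, was higher, at 2.57 to 2.64 against 1.51 to 1.74. In the other groups of the series pool 2 had the highest ACTB ratio too. The same ratio of GAPDH was lowest in pool 2, at 1.006 at day 6 and 0.933 with bFGF, against 1.011 to 1.142 in the other pools. With the 4 arrays of the series that had raised low signals as a term 1912 genes passed, 1231 did without pool 2 of the 4 neuroepithelial groups, and 1304 after quantile scaling. The part of RNA integrity was not tested. With each of the 6 pools left out in turn 921 to 1068 genes passed, the fewest without day 6 pool 3. Of these 586 to 660 were higher and 335 to 408 lower, with 335 lower without day 6 pool 3, 344 without treated pool 3, and 360 and 363 without day 6 pools 1 and 2. Each gene was read from 1 probe set. With a gene's probe sets averaged 1242 genes passed, and 18 of the 115 list members called from day 6 lost their calls. Some others kept theirs at smaller changes, such as 1.78 for ZIC1, 1.35 for ACTA2, 1.55 for COL1A1 and -1.01 for FGFR2, and FGF9 at a larger one, 1.72.

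**Figure D1:**
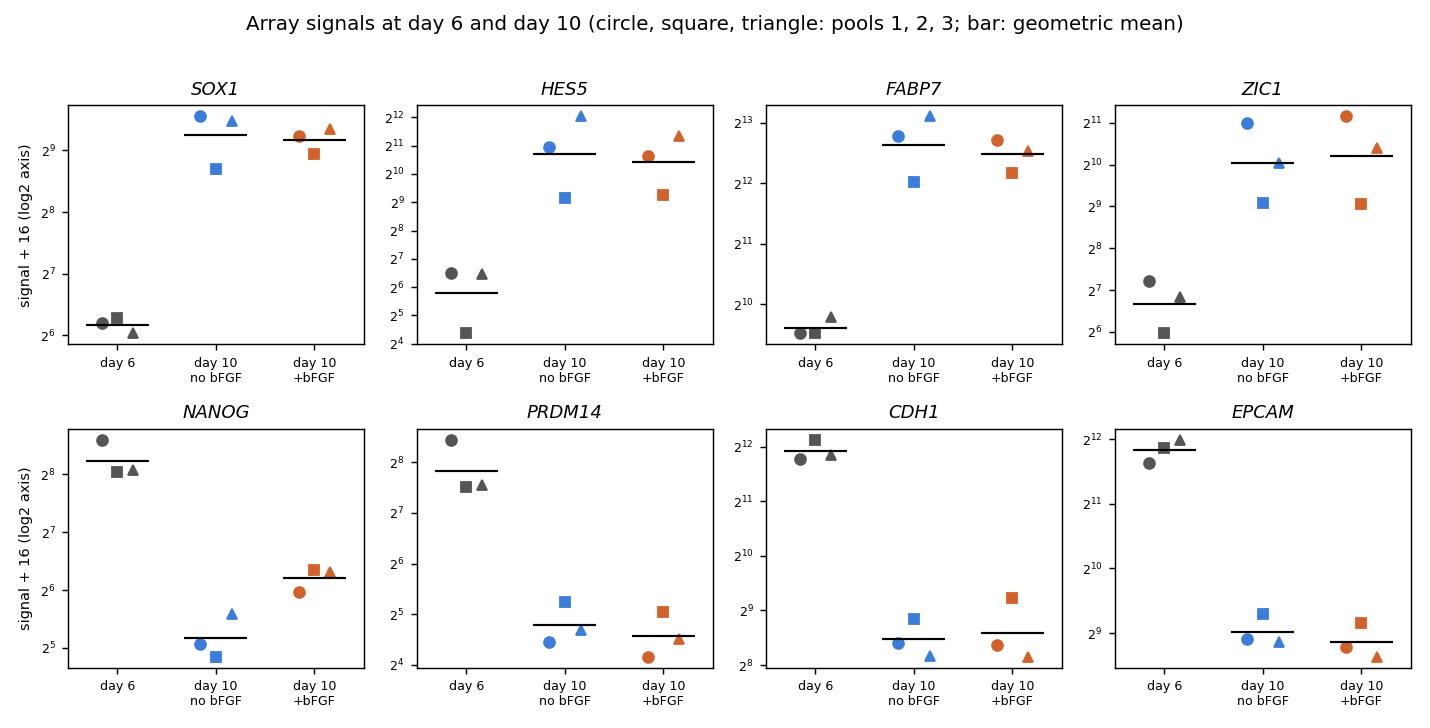
Signal plus 16, on a log2 axis, of 8 genes in the 3 pools each of day 6 embryoid bodies, day 10 without bFGF and day 10 with bFGF; marker shapes are pools and bars are geometric means. The treated pools of SOX1, HES5, FABP7 and ZIC1 lie above all day 6 pools, and those of NANOG, PRDM14, CDH1 and EPCAM lie below them.

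Neural progenitor genes that passed the test all rose. Of 27 measured members 12 rose and 0 fell, with a median change of 0.77 against 0.08 over all genes; the untreated course had 14 higher and a median of 1.05. ZIC1, a zinc finger factor of the neural plate, read 132, 46.7 and 98.1 at day 6 and 2260, 516 and 1333 with bFGF (3.53 ± 0.49, adjusted p = 0.000215). Its treated pools spread widely, pool 2 being lowest, without reaching the day 6 range. FABP7, the fatty acid binding protein of radial glia, read 722, 719 and 867 at day 6 and 6720, 4601 and 5933 with bFGF (2.87 ± 0.26, adjusted p = 3.39e-06). NR2F1, a nuclear receptor of the developing brain, rose by 2.28 ± 0.37 on the log2 scale and SOX3, a SOXB1 factor like SOX1, by 1.69 ± 0.32. With its probe sets averaged SOX3 gave 1.36 (adjusted p = 0.0881). PAX6, a factor of the neural plate and eye, read 881, 589 and 706 at day 6 and 1412, 1534 and 1446 with bFGF (1.02 ± 0.26, adjusted p = 0.0228). The PAX6 groups did not overlap, but its call was lost without any of 5 of the 6 pools (day 6 pool 2 or 3, or any treated pool), where the adjusted p reached 0.107. SOX2, which ES cells and neural precursors both express, was at 9030 ± 681 (SD, n = 3) at day 6 and 8067 ± 581 with bFGF (-0.16 ± 0.17, adjusted p = 0.684).

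The Notch list had 8 of 22 measured members higher and 0 lower, with a median change of 0.53. HES4 read 47.0, 4.43 and 6.85 at day 6 and 244, 146 and 325 with bFGF (2.98 ± 0.49, adjusted p = 0.000865). HES1, at 753, 458 and 764 against 2229, 1180 and 2501, rose too (1.52 ± 0.43, adjusted p = 0.0438). All 3 HES genes had treated pools above the day 6 pools, with treated pool 2 the lowest in each. The ligand DLL1 rose by 1.59 ± 0.37 and JAG1, another ligand, by 1.05, the receptor NOTCH1 by 1.16, and LFNG, a glycosyltransferase that modifies Notch, by 1.42. With probe sets averaged DLL1 gave 0.84 (adjusted p = 0.109) and LFNG 0.55 (0.179), neither past the test. Without day 6 pool 3, or treated pool 1 or 3, the DLL1 call was lost (adjusted p up to 0.0701), as was that of HES1 without any pool but treated pool 2 (up to 0.171); without day 6 pool 3 the list had 6 members higher. Of the other effectors with a promoter match, HEY2 read 104 ± 3.06 (SD, n = 3) at day 6 and 35.7 ± 22.1 with bFGF (-1.30 ± 0.39, adjusted p = 0.0583), and HEYL 40.8 and 50.6 (0.22 ± 0.19, adjusted p = 0.598). NRARP, without a match, read 434 and 570.4 (0.38 ± 0.19, adjusted p = 0.307).

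Regional genes of the brain split. Of 17 forebrain and eye field genes 7 rose and 2 fell (median 0.46), beside 4.29% higher and 2.76% lower over all genes. SIX6, a homeobox gene of the optic field, read 62.0, 34.9 and 53.2 at day 6 and 481, 178 and 469.9 with bFGF (2.47 ± 0.35, adjusted p = 0.00023), while HESX1, a repressor of the earliest anterior neural plate, read 2712, 2545 and 3074 against 454, 295 and 352 (-2.88 ± 0.32, adjusted p = 2.55e-05). Neither gene's groups overlapped. FEZF2, a forebrain zinc finger factor, rose by 2.34 ± 0.47 and DLX1, a homeobox gene of the ventral forebrain, by 2.36 ± 0.46, LHX2 rose by 1.75 and LHX5 fell by 1.83. SIX3 and OTX2, forebrain factors, did not pass the test (0.40 ± 0.32 and -0.52 ± 0.27). The list had 5 members higher and 1 lower without day 6 pool 1.

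Of 13 midbrain and hindbrain genes 3 rose and 2 fell (median 0.19), beside 4.29% higher and 2.76% lower over all genes. FGF8, the signal of the midbrain-hindbrain organizer, read 41.4, 10.5 and 16.95 at day 6 and 188, 63.5 and 180 with bFGF (2.00 ± 0.53, adjusted p = 0.0305), and GBX2, a homeobox gene of the anterior hindbrain, read 9.68, 1.26 and 3.33 against 52.6, 25.8 and 53.0 (1.51 ± 0.34, adjusted p = 0.0113). IRX1 and IRX2, Iroquois homeobox genes, fell by 1.78 ± 0.25 and 1.66 ± 0.29, and IRX2 gave -0.53 (adjusted p = 0.217) with its probe sets averaged. The 3 increases rested on few pools: without day 6 pool 2 none was called, and neither was any after quantile scaling; FGF8 and GBX2 reached adjusted p = 0.125 and 0.0588 with 1 pool left out. None of the 24 measured HOX and CDX genes of the posterior axis passed the test (median 0.24). CDX1 had the largest estimate, from 2.25, 8.37 and 8.24 to 23.7, 64.5 and 23.7 (1.19 ± 0.43, adjusted p = 0.131, and 0.0273 when blocked by pool number). Of 20 genes of the dorsal and ventral neural tube, GLI3, a transducer of hedgehog signals, rose by 1.01 ± 0.21 and PTCH1, the hedgehog receptor, fell by 1.33 ± 0.21, and 18 did not pass, beside 4.29% higher and 2.76% lower over all genes. With probe sets averaged neither passed, at 0.69 (adjusted p = 0.0506) for GLI3 and -0.45 (0.294) for PTCH1.

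Of 24 proneural and neuronal genes 3 rose and 1 fell (median 0.43), beside 4.29% higher and 2.76% lower over all genes. The increases were in MAP2, a microtubule protein of dendrites, from 577, 475 and 532 to 2408, 1760 and 1615 (1.82 ± 0.30, adjusted p = 0.000875), ELAVL2, an RNA-binding protein of neurons, by 0.94, and SYT1, a synaptic vesicle protein, by 0.88. ISL1, a LIM homeobox gene of motor and sensory neurons, read 169, 303 and 202 at day 6 and 29.02, 105 and 32.1 with bFGF (-1.87 ± 0.38, adjusted p = 0.00494), with no overlap. Markers of young neurons stayed below the threshold: the estimate was 0.78 ± 0.26 for DCX (adjusted p = 0.0934), 0.82 ± 0.35 for STMN2 (0.200) and 0.90 ± 0.36 for ELAVL4 (0.173). TUBB3, a further neuronal marker, did not pass either, and ran from -0.31 to 0.15 with 1 pool left out. In the untreated course DCX changed by 1.31 (adjusted p = 0.0052) and ELAVL4 by 1.65 (0.0089), and with bFGF against without at day 10 they differed by -0.52 (95% interval -1.08 to 0.03) and -0.75 (-1.51 to 0.01). Blocked by pool number, the intervals were -1.05 to 0.0042 and -1.36 to -0.14, and neither gene passed the test over all genes (adjusted p = 0.924 and 0.726). With 1 pool left out the list had 1 or 2 members higher.

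Genes of FGF signalling were read in 2 lists. Of 25 ligand and receptor genes 3 rose and 4 fell (median 0.09), beside 4.29% higher and 2.76% lower over all genes. FGF9, a secreted ligand, rose from 85.7, 80.3 and 72.9 to 231, 324 and 213 (1.49 ± 0.24, adjusted p = 0.000743) and FGF13, an intracellular member of the family, by 0.89. FGF4, a ligand of pluripotent cells, read 214, 176 and 159 at day 6 and 53.2, 58.0 and 21.9 with bFGF (-1.77 ± 0.35, adjusted p = 0.00416). The receptor FGFR2 fell from 1406, 1501 and 1127 to 271, 362 and 226 (-2.18 ± 0.27, adjusted p = 6.14e-05), the receptor FGFR3 fell by 1.17 (-0.65 with its probe sets averaged, adjusted p = 0.0855), and the gene of the added factor, FGF2, fell by 1.11. The groups did not overlap in FGF9, FGF4 or FGFR2. Left without day 6 pool 2, the list had 1 member higher and 2 lower.

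Of 25 genes of the FGF and ERK response 12 rose and 0 fell, with a median change of 0.96 against 0.08 over all genes. DUSP6, the phosphatase that inactivates ERK, read 307, 244 and 456 at day 6 and 3384, 1775 and 4663 with bFGF (3.16 ± 0.36, adjusted p = 3.27e-05). IER3, an immediate early gene, read 124, 123 and 96.8 against 2003, 1148 and 1645 (3.60 ± 0.32, adjusted p = 2.46e-06), and ETV5, an ETS factor, 123, 105 and 121 against 599, 375 and 939 (2.21 ± 0.39, adjusted p = 0.00172). Treated pool 2 was lowest in all 3 and remained above day 6. SPRY1 and SPRY2, inhibitors of receptor tyrosine kinase signalling, rose by 1.96 and 1.54, IL17RD, a membrane antagonist of FGF receptors, by 2.00, and EPHA2, an ephrin receptor, by 2.15 ± 0.36. The same list had 10 members higher and 1 lower in the course without added bFGF (median 0.84), where DUSP6 changed by 2.52 and ETV5 by 2.00. At day 10 DUSP6 with bFGF exceeded DUSP6 without it by 0.65 (95% interval -0.12 to 1.42; 0.18 to 1.11 blocked by pool number) and ETV5 by 0.21 (-0.63 to 1.05; -0.26 to 0.68 blocked). Neither passed the test over all genes, with blocked adjusted p = 0.634 and 0.971. With 1 pool left out the list had 8 to 11 members higher, 8 of them without day 6 pool 3.

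**Figure D2:**
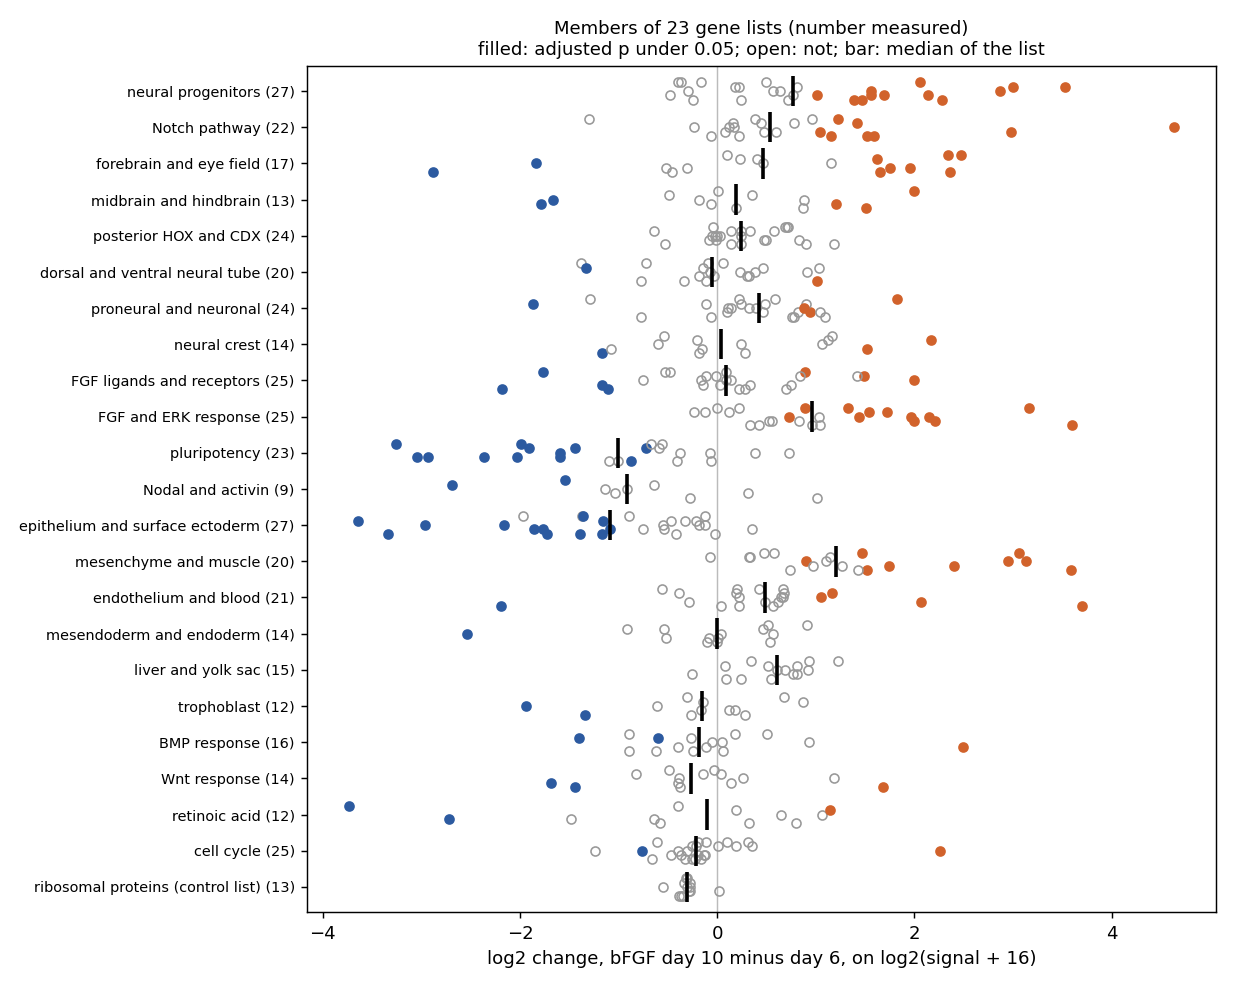
Log2 change from day 6 to day 10 with bFGF of every measured member of 23 gene lists, filled where the adjusted p was under 0.05, with a bar at the median of each list. Neural progenitor, Notch, FGF and ERK response, and mesenchyme and muscle genes have their called members on the right; pluripotency and epithelial genes have theirs on the left; no HOX, CDX, liver or ribosomal gene is called.

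Pluripotency genes fell: 12 of 23 measured members fell and 0 rose, with a median change of -1.01. PRDM14, a repressor that sustains the ES cell state, read 331, 165 and 172 at day 6 and 1.84, 16.9 and 6.86 with bFGF (-3.26 ± 0.43, adjusted p = 0.000125). KLF4, a factor used in reprogramming, read 344, 354 and 337 against 16.3, 45.1 and 26.3 (-3.05 ± 0.31, adjusted p = 1e-05). ZFP42, a zinc finger marker of ES cells, and DNMT3B, a de novo DNA methyltransferase abundant in ES cells, fell by 2.93 ± 0.25 and 2.36 ± 0.19. NANOG, a core pluripotency factor, fell from 370, 246 and 255 to 46.4, 65.8 and 63.5 (-2.03 ± 0.31, adjusted p = 0.000486). LIN28A, an RNA-binding protein shared with neural precursors, was at 10774, 10150 and 11770 at day 6 and 6820, 8275 and 7120 with bFGF (-0.56 ± 0.24, adjusted p = 0.221). Without day 6 pool 2, without pool 2 of the neuroepithelial groups, or after quantile scaling, 9 members fell. Of the 9 genes of Nodal signalling, FOXH1, its nuclear partner, fell by 2.68 ± 0.50 and FST, an activin antagonist, by 1.55 ± 0.28.

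At day 10 the NANOG level was 17.7, 12.7 and 32.3 without bFGF, below all 3 treated pools. The difference was 1.04 on the log2 scale (95% interval 0.38 to 1.70; 0.50 to 1.58 blocked by pool number), which over all genes gave an adjusted p of 0.799, and 0.232 when blocked by pool number. It therefore did not pass the test.

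Epithelial genes fell as well: 12 of 27 measured members fell and 0 rose (median -1.09). CDH1, the cadherin of epithelial junctions, read 3475, 4440 and 3687 at day 6 and 313, 585 and 268 with bFGF (-3.33 ± 0.31, adjusted p = 4.67e-06), and CDH2, the cadherin of neuroepithelium, was called higher by 1.47. EPCAM, an epithelial adhesion molecule, read 3157, 3701 and 4033 against 426, 552 and 380 (-2.97 ± 0.19, adjusted p = 9.17e-08). ESRP1, an epithelial splicing regulator, fell from 1333, 1572 and 1519 to 96.5, 89.3 and 127 (-3.64 ± 0.24, adjusted p = 9.17e-08). The groups did not overlap in these 3, which was a condition for their place among the largest decreases. The differences between the day 10 groups were small in these genes, at 0.11 for CDH1 (95% interval -0.56 to 0.77), -0.16 for EPCAM (-0.57 to 0.24) and -0.13 for ESRP1 (-0.63 to 0.37). Blocked by pool number, these intervals were -0.31 to 0.52, -0.53 to 0.21 and -0.59 to 0.33. Without day 6 pool 1 the list had 7 members lower; SPINT1, a protease inhibitor of epithelia (-2.17 ± 0.62, adjusted p = 0.0439), lost its call without any of 4 pools, where its adjusted p reached 0.164, and with its probe sets averaged (-0.95, adjusted p = 0.103).

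Mesenchyme and muscle genes rose, with 9 of 20 higher, 0 lower and a median of 1.21. ACTA2, smooth muscle actin, read 185, 107 and 151 at day 6 and 2232, 1519 and 2092 with bFGF (3.59 ± 0.35, adjusted p = 6.12e-06), and COL1A1, a fibrillar collagen chain, read 329, 291 and 362 against 2502, 3430 and 2688 (3.06 ± 0.27, adjusted p = 2.56e-06). TAGLN, an actin-binding protein of smooth muscle, rose by 3.14 ± 0.62, and COL5A2, another collagen chain, by 2.95 ± 0.24. Summed over the list, the signal was 3455 to 4530 at day 6, 13520 to 16620 at day 10 without bFGF and 14488 to 18365 with it. At day 10 ACTA2 differed between the groups by 0.01 (95% interval -0.72 to 0.75; -0.49 to 0.52 blocked by pool number). The list had 6 members higher without day 6 pool 3.

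Retinoic acid genes included an enzyme among the 15 largest decreases. CYP26A1, which degrades retinoic acid, read 3954, 3473 and 4065 at day 6 and 225, 253 and 352 with bFGF (-3.74 ± 0.21, adjusted p = 4.68e-08), and ALDH1A2, which makes it, read 425, 185 and 351.4 against 38.9, 26.5 and 32.6 (-2.72 ± 0.31, adjusted p = 2.46e-05). All treated pools were below all day 6 pools in both. Of 12 measured members 1 rose and 2 fell (median -0.11); the increase was in the receptor RARB (1.14 ± 0.31, adjusted p = 0.0354), which lost its call without any of 4 pools (adjusted p up to 0.167) and with its probe sets averaged (0.48, adjusted p = 0.397). Of 16 BMP response genes, ID1, a target that inhibits differentiation factors, fell by 1.40 ± 0.28 and SMAD6, an inhibitor of the pathway, by 0.60 (0.15 with its probe sets averaged, adjusted p = 0.858), and GREM1, a secreted BMP antagonist, rose from 215, 181 and 224 to 1344, 1088 and 1272 (2.49 ± 0.32, adjusted p = 0.000113). Of 14 Wnt response genes, LGR5, an R-spondin receptor, rose by 1.68 ± 0.25, TNFRSF19, a TNF receptor family member, fell by 1.69 ± 0.26, and SP5, a transcriptional target, fell by 1.44 ± 0.41 but lost its call when any of the 6 pools was left out (adjusted p up to 0.211). In the cell cycle list of 25, CDKN1A, an inhibitor of cyclin-dependent kinases, rose by 2.26 ± 0.46. BUB1, a checkpoint kinase (-0.77 ± 0.21, adjusted p = 0.0379), lost its call with any pool left out (adjusted p up to 0.145) and with its probe sets averaged (-0.40, 0.335). The few calls in each of these lists stand beside 4.29% of all genes called higher and 2.76% called lower.

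Markers of cell types outside the neural lineage were checked for the same arrays. In the endothelium and blood list 4 of 21 members rose and 1 fell (median 0.48), beside 4.29% higher and 2.76% lower over all genes. Its summed signal was 724 to 904 at day 6, 743 to 1151 at day 10 without bFGF and 1248 to 1543 with it. That sum includes ADGRL4, described further below, which averaged 6.48, 15.9 and 270 in the same order. CDH5, the endothelial cadherin, read 3.32, 3.98 and 12.8 at day 6 and 71.6, 71.5 and 92.1 with bFGF (2.07 ± 0.40, adjusted p = 0.0035), and ESAM, an endothelial adhesion molecule, rose by 1.05. ESAM kept its call in 8 of 16 alternatives (adjusted p up to 0.111). It was lost without any 1 of the day 6 pools, without treated pool 2 or 3, and after quantile scaling, among others. PECAM1, a defining surface protein of endothelium, overlapped between the groups at 36.0, 51.3 and 31.1 against 30.2, 75.7 and 41.3 (0.19 ± 0.36, adjusted p = 0.844; -0.054 after quantile scaling). VWF, the clotting factor that endothelium stores, fell from 158, 123 and 117 to 50.6, 7.08 and 5.77 (-2.19 ± 0.39, adjusted p = 0.0018). KDR, a VEGF receptor, did not pass (0.62 ± 0.30, adjusted p = 0.290), and TEK, an angiopoietin receptor, did (1.16 ± 0.34, adjusted p = 0.0467) but lost its call with any pool left out (adjusted p up to 0.204) and with its probe sets averaged (0.82, 0.273). Without day 6 pool 2, without pool 2 of the neuroepithelial groups, or after quantile scaling, 2 members rose. The part of such cells in the results was not tested.

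In the neural crest list 2 of 14 members rose and 1 fell, beside 4.29% higher and 2.76% lower over all genes. TWIST1, a factor of mesenchyme and migrating crest, rose from 31.6, 24.8 and 20.4 to 168, 255 and 113 (2.17 ± 0.41, adjusted p = 0.0025). SOX9, which crest and neural precursors both use, rose by 1.52 ± 0.33, a call lost without treated pool 1 (adjusted p = 0.0507), and EDNRB, an endothelin receptor, fell by 1.17 ± 0.28, a call lost without day 6 pool 3 or treated pool 3 (adjusted p up to 0.0765) or with its probe sets averaged (-0.73, 0.0736). SOX10 and FOXD3, defining crest factors, did not pass, with treated signals of 48.3 to 81.6 and 24.5 to 38.0. SNAI2, a further crest marker, did not pass either, though its estimates were positive, at 0.92 to 1.33 with 1 pool left out. Of 15 liver and yolk sac genes 0 passed, with AFP at 44.2 to 112, and of 14 mesendoderm and endoderm genes HHEX, a homeobox gene of anterior endoderm, fell by 2.54 ± 0.35. Of 12 trophoblast genes EPAS1, a hypoxia-inducible factor, fell by 1.94 ± 0.35 and GATA3 by 1.34 ± 0.34, the second call being lost without any of 3 pools (adjusted p up to 0.115) and the first with its probe sets averaged (-0.80, 0.116). None of the 13 ribosomal protein genes taken as a control list passed, with a median of -0.31 (-0.01 after quantile scaling).

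The 15 largest increases included genes in none of these lists. COL8A1, a short-chain collagen, read 2.19, 5.44 and 0.350 at day 6 and 525, 609 and 466 with bFGF (4.88 ± 0.35, adjusted p = 3.18e-07). TFPI2, a secreted protease inhibitor, read 12.9, 9.87 and 4.18 against 721, 468 and 1042 (4.87 ± 0.41, adjusted p = 1.97e-06), and CCN2, a matricellular protein, 208, 280 and 214 against 3909, 2932 and 5381 (4.001 ± 0.24, adjusted p = 8.87e-08). Groups that did not overlap were a condition for a place among the 15, so their separation is no separate result. EMP1, a tetraspan membrane protein (4.44), COL11A1, a fibrillar collagen chain (4.23), ANKRD1, a nuclear ankyrin repeat protein of muscle (4.07), NPPB, the brain natriuretic peptide (4.01), MAMDC2 (3.92), TIMP3, an inhibitor of metalloproteinases (3.64), and CAV2, a caveolin (3.58), also rose. Of the 3 probe sets of COL8A1, 2 had positive changes and the other gave -0.08.

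The 15 largest decreases were led by SCNN1A, a subunit of the epithelial sodium channel, which read 649, 286 and 426 at day 6 and 4.37, 39.5 and 14.1 with bFGF (-3.78 ± 0.39, adjusted p = 1.02e-05). Only 1 of its 3 probe sets showed this direction, and the mean of the 3 gave -1.10 (adjusted p = 0.136). SCGB3A2, a secretoglobin, read 249, 249 and 210 at day 6 and 3.27, 4.45 and 1.32 with bFGF (-3.73 ± 0.17, adjusted p = 4.86e-09). BIK, a BH3-only cell death protein (-3.29), IDO1, a tryptophan-degrading enzyme (-3.22), KCNK1, a potassium channel (-3.10), FAM20A, a secretory pathway pseudokinase (-3.09), SHISA3 (-3.06), FRAT2, a regulator of Wnt signalling (-2.99), and PLCL2, a phospholipase C-like protein (-2.98), fell too. The highest adjusted p among the 30 largest changes was 0.000783, and 29 of the 30 kept their calls under every alternative run, the exception being SCNN1A.

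**Figure D3:**
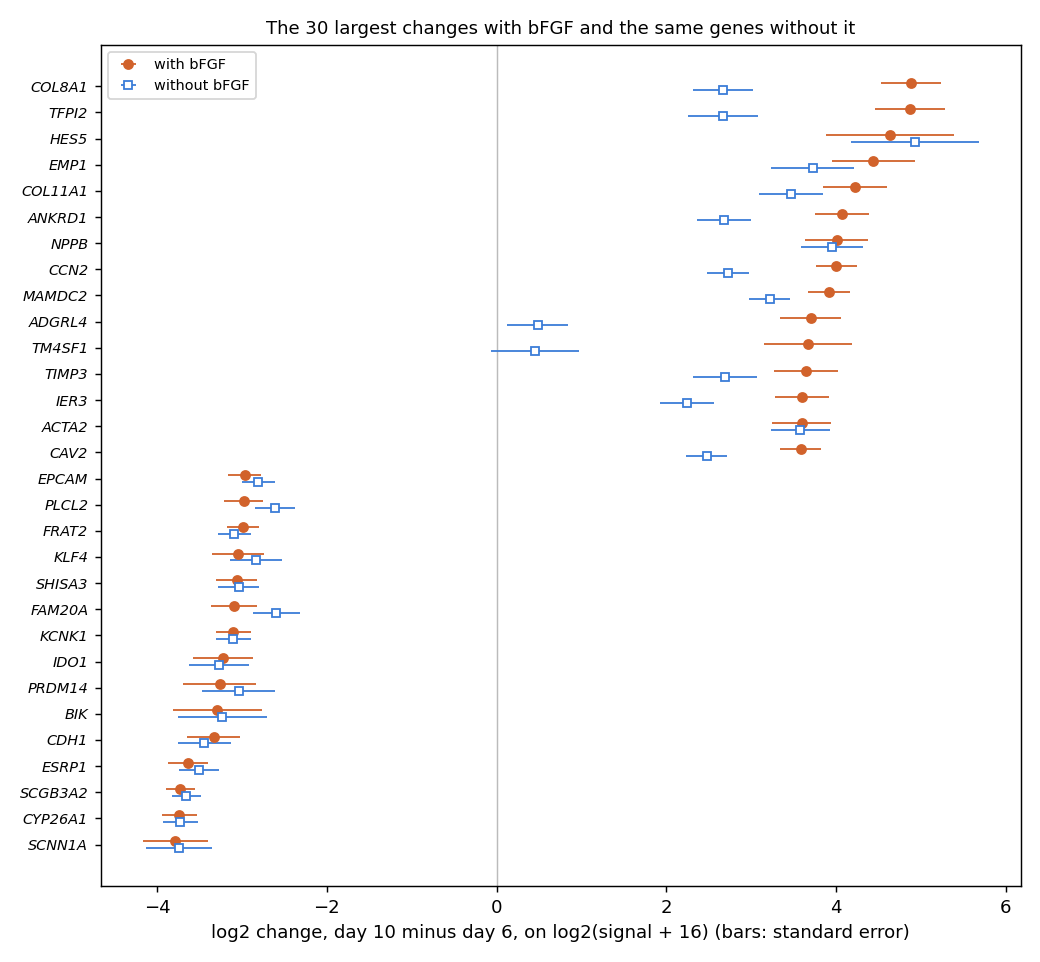
Log2 change from day 6 to day 10, with its standard error, of the 15 genes that rose most and the 15 that fell most with bFGF (filled circles), and of the same genes without bFGF (open squares); both courses share the day 6 arrays, and the genes were picked on the treated values. With bFGF the changes run from -3.78 for SCNN1A to 4.88 for COL8A1, and the squares of ADGRL4 (0.48) and TM4SF1 (0.46) lie near 0.

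Where the treated course departed from the untreated one was tested directly at day 10, since the day 6 arrays cancel in that difference. 17 genes (0.086%) passed, 16 of them higher (0.0809%) and 1 lower (0.00506%) with bFGF, and 613 had an unadjusted p under 0.05. All 17 had groups that did not overlap, as did 6.11% of all genes, and 13 also changed from day 6. Pools of equal number deviated together in these 2 groups, and a fit blocked on that number called 34 genes, all 17 among them. The count was 0 when the 2 groups were fitted alone, with 501 genes at an unadjusted p under 0.05, and fell between 3 and 13 with 1 pool left out (4 without treated pool 1, 13 without treated pool 2, 3 without treated pool 3, and 3, 8 and 6 without untreated pools 1, 2 and 3). The count was 2 with a pseudocount of 1 and 10 with a gene's probe sets averaged. The neural progenitor, Notch, pluripotency and epithelial lists had 0 members past this test. The difference was -0.07 for SOX1 (95% interval -0.73 to 0.58), -0.30 for HES5 (-1.88 to 1.29), -0.16 for FABP7 (-0.71 to 0.40) and 0.17 for ZIC1 (-0.87 to 1.21). Blocked by pool number, the intervals were -0.70 to 0.55, -1.20 to 0.61, -0.60 to 0.29 and -0.49 to 0.82.

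ADGRL4, an adhesion G protein-coupled receptor known from endothelium, was the gene of the endothelial list past this test. It read 0.852, 3.35 and 15.2 at day 6, 24.1, 3.13 and 20.3 at day 10 without bFGF, and 299, 204 and 306 with it. The treated pools stood alone, both against day 6 (3.70 ± 0.36, adjusted p = 5.87e-06) and against untreated day 10 (3.21 ± 0.36, adjusted p = 0.00167). TM4SF1, a tetraspan surface protein, read 43.4, 11.2 and 26.7 at day 6, 5.35, 104 and 53.5 without bFGF and 457, 514 and 546 with it. Its difference from untreated was 3.21 ± 0.52 (adjusted p = 0.0265). MMP7, a secreted metalloproteinase, read 21.1, 3.63 and 1.60, then 10.9, 59.1 and 5.70, then 299.7, 186 and 263 in the same order (2.89 ± 0.40, adjusted p = 0.00825).

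LOX, the enzyme that crosslinks collagen and elastin, read 26.9, 14.3 and 23.4 at day 6, 29.5, 39.8 and 25.1 without bFGF and 268, 276 and 319 with it (difference from untreated 2.68 ± 0.36, adjusted p = 0.00661). DKK2, a secreted Wnt modulator, read 11.3, 0.918 and 6.52, then 13.9, 15.6 and 27.4, then 131, 106 and 218 (2.23 ± 0.28, adjusted p = 0.00388). PHLDA2, a pleckstrin homology domain protein, read 104, 93.3 and 63.7, then 97.9, 123 and 121, then 395, 573 and 787 (2.16 ± 0.25, adjusted p = 0.00167). In these 3 genes the untreated and day 6 pools lay close together and the treated pools apart. NT5E, the ecto-enzyme CD73, differed by 2.07 ± 0.34 (adjusted p = 0.0265) at treated signals of 66.3 to 124, and COL8A1, which rose in both courses, by 2.21 ± 0.35 (adjusted p = 0.0265). With 1 pool left out, ADGRL4, DKK2 and PHLDA2 kept their calls throughout; the highest adjusted p was 0.0575 for LOX (without untreated pool 1; also lost without treated pool 3), 0.0766 for MMP7 (untreated pool 1; also without treated pool 1 or 3 or untreated pool 3), 0.157 for TM4SF1 (treated pool 3; kept only without untreated pool 2), 0.146 for COL8A1 (untreated pool 3; kept only without untreated pool 2) and 0.162 for NT5E (untreated pool 1; kept only without untreated pool 3). With probe sets averaged the difference was 0.93 for DKK2 (adjusted p = 0.951), 0.75 for PHLDA2 (1.00), 1.10 for COL8A1 (0.329) and 0.83 for NT5E (0.526), none past the test. With a pseudocount of 1 ADGRL4 gave 4.35 (adjusted p = 0.129) and DKK2 2.93 (0.193), and with the 2 groups fitted alone the adjusted p was 0.0823 for LOX, 0.215 for ADGRL4 and 0.534 for DKK2 and PHLDA2.

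HSD3B1, a steroid dehydrogenase, was the gene that was lower. It read 1.87, 5.35 and 1.06 at day 6, 115, 53.2 and 45.4 at day 10 without bFGF and 4.88, 3.53 and 10.7 with it (difference from untreated -1.89 ± 0.29, adjusted p = 0.0199). The untreated pools were the high ones, and the treated pools overlapped with day 6. Averaging its probe sets gave a difference from untreated of -1.06 (adjusted p = 0.190), and its call was also lost without any treated pool or without untreated pool 1 (adjusted p up to 0.116). The remaining genes higher with bFGF were EDN1, the peptide endothelin, by 1.80, PLAU, urokinase, by 1.49, SGK1, a kinase, by 1.38, WNK4, a kinase, by 1.83, TM4SF18 by 1.32, MICAL2, an actin-oxidizing enzyme, by 1.27, PHLDA1, a target of ERK signalling, by 1.22, and ZNF852 by 1.18. Of 16 alternatives WNK4 kept its call in 3 and ZNF852 in 6. Of 17, TM4SF18 and MICAL2 kept it in 6, EDN1 and PHLDA1 in 8, and PLAU and SGK1 in 9. PHLDA1 lost its call without treated pool 1 or 3, without any 1 of the untreated pools, and with its probe sets averaged.

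PHLDA1 was the gene of the FGF and ERK response list past this test: its mean was 383 at day 6, 141 at day 10 without bFGF and 360 with it, so that the treated cells lay near the day 6 level. In ZNF852 (31.3, 4.40 and 30.5 in that order) and MICAL2 (145, 56.5 and 157) too, the untreated mean was lowest and the treated mean near that of day 6. Blocked by pool number, TFPI2 (2.21, adjusted p = 0.00523, against 0.0661 without the block) and CCN2 (1.27, adjusted p = 0.0282, against 0.0661) also passed. So did EN2, a homeobox gene of the midbrain-hindbrain junction (1.21, adjusted p = 0.0474, against 0.0938), CAV1, the main caveolin (1.06, 0.0274 against 0.0661), CD44, a hyaluronan receptor (1.43, 0.0474 against 0.445), SPP1, osteopontin (1.50, 0.00952 against 0.159), and ANGPT2, an angiopoietin (1.59, 0.0236 against 0.782), which were picked out after their values were seen. DLX1 (1.77, adjusted p = 0.445) and TWIST1 (1.73, 0.270) passed in neither fit.

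**Figure D4:**
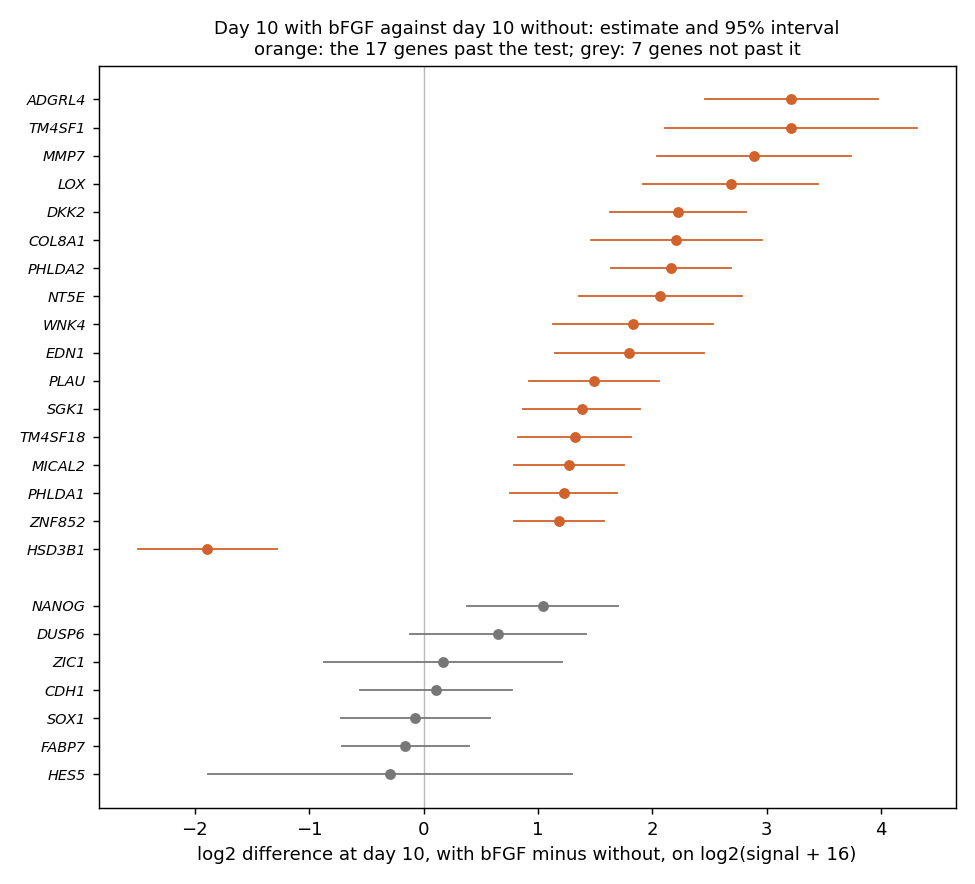
Log2 difference at day 10 between cells with and without bFGF, with 95% intervals, for the 17 genes past the test (orange) and for 7 genes of the neural, ERK, epithelial and pluripotency lists that did not pass (grey). The orange points run from 3.21 for ADGRL4 down to -1.89 for HSD3B1; the grey intervals, drawn without the block on pool number, cross 0 except that of NANOG.

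At day 17 the 6 genes plotted across all groups were again higher with bFGF than without it in their means, as a description without a test. ADGRL4 averaged 191 ± 60.8 (SD, n = 3) with bFGF and 11.6 ± 6.75 without, TM4SF1 456 and 83.0, and LOX 647 and 168. DKK2 averaged 235 and 44.5, PHLDA2 486 and 179, and MMP7 120 and 57.4. These 6 were taken from the genes called at day 10, and the others called there varied at day 17. NT5E averaged 82.4 with bFGF and 5.86 without, and PHLDA1 525 and 204. WNK4 averaged 26.1 and 24.7, ZNF852 20.7 and 18.8, and EDN1 283 and 220. HSD3B1, lower with bFGF at day 10, averaged 7.84 and 5.78. Without bFGF, LOX averaged 31.5 at day 10 and so read higher at day 17, while ADGRL4 read 15.9 ± 11.2 at day 10 and no higher at day 17. DUSP6 averaged 3374 with bFGF and 460.2 without it at day 17.

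**Figure D5:**
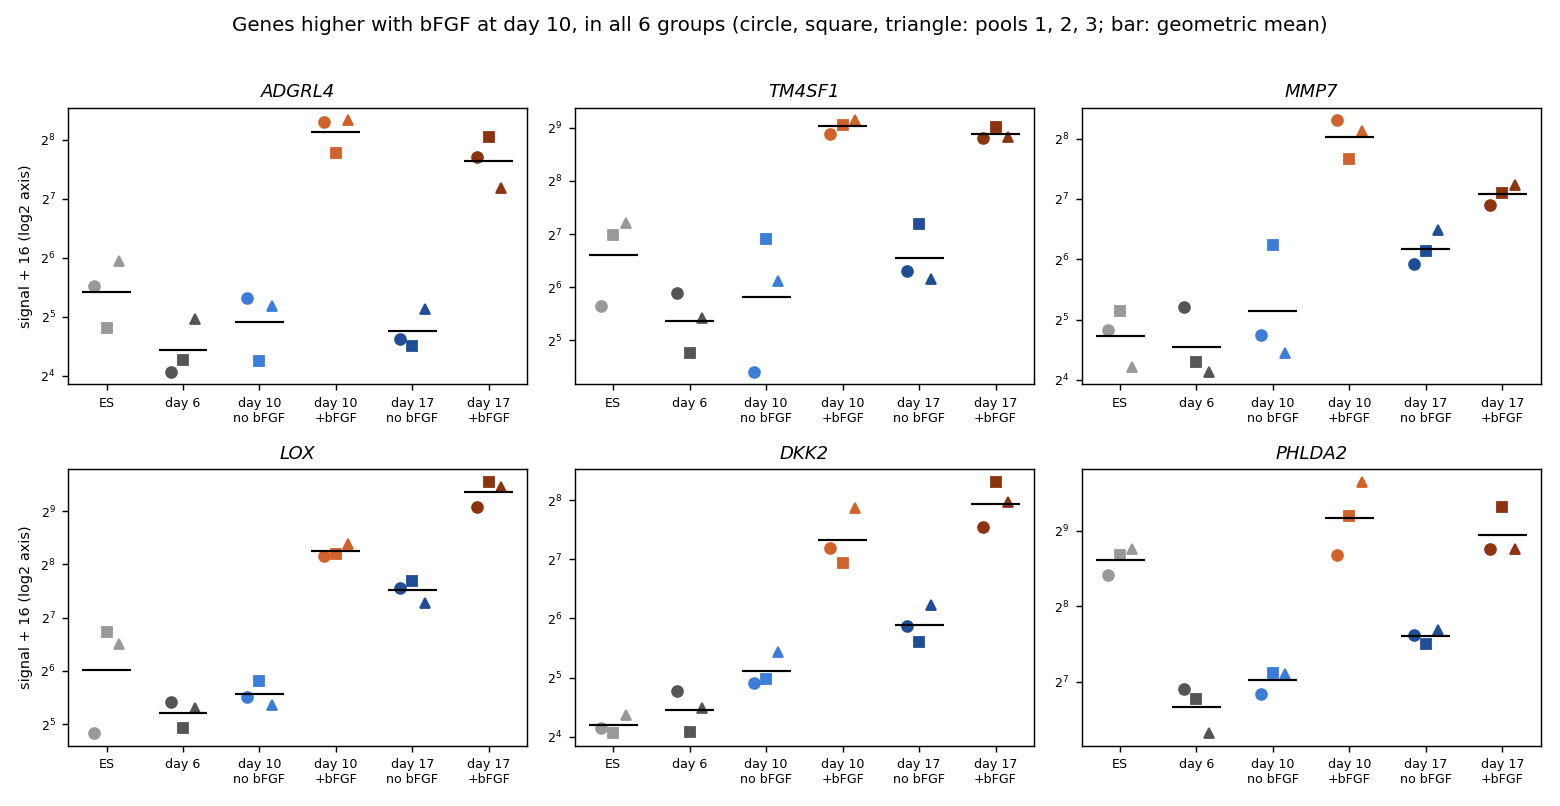
Signal plus 16, on a log2 axis, of 6 genes that were higher with than without bFGF at day 10, in the 3 pools of all 6 groups; marker shapes are pools and bars are geometric means. The 3 treated pools at day 10 lie above the 3 untreated ones in every panel, and ADGRL4 stays low in all groups without bFGF.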

How the data were processed

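Total RNA pools were measured on 1-colour Affymetrix arrays, and groups and pool numbers come from the sample titles. The deposited values are linear signals (intensity) of 54675 probe sets on 18 arrays. Its 2% trimmed mean was 150.016 to 150.026 on every array, so it had been scaled; how the authors summarised probes is not given in the sources used. With no detection calls, weak signals carry no lower bound, and precision is limited by the number of arrays.

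The analysis used log2(signal + 16). A gene was read from a probe set that names it alone in the platform annotation, without the suffix _x_at where another existed, and with the highest mean over all arrays, which gave 19775 genes. POU5F1 had no such probe set and is not analysed here. limma 3.58.1 in R 4.3.3 (lmFit and eBayes, two-sided) fitted 1 mean per group over 18 arrays with 12 residual degrees of freedom, and Benjamini-Hochberg adjusted p under 0.05 over all genes was the threshold. Simulated on these samples' means, with 50 genes for each size of change, the test of day 10 with bFGF against day 6 recovered 38% of log2 changes of 1, 80% of 2, 94% of 3 and 100% of 4.

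Lists were described by counts and medians, to be read beside the 4.29% of all genes called higher and 2.76% called lower. Named were the 15 largest changes each way with groups apart and a current symbol, up to 4 members of each list by size of change, cell type markers, and up to 8 genes each way against untreated day 10; further list members are given where their group is described. The comparison, its members and the lists were chosen with earlier results of these data known. Across genes, same-numbered pools of day 10 with and without bFGF deviated together (r of 0.39, 0.67 and 0.45). The main fit carried no block on pool number in either comparison, and values from a blocked fit are named as such. Same-numbered pools of day 10 with bFGF and day 6 did not reach 0.1 in every pair (0.096, 0.28 and 0.090). For 1 treated pool the title (2) and the description (1) differ in number, and the title was followed. Alternatives were other pseudocounts, quantile scaling, an expression filter, a trended prior, the compared groups alone, the mean of probe sets, pool blocks, the arrays with raised low signals left out or as a term, and each array left out.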

Additional observations from a re-analysis of the deposited data

Results flagged for a closer look

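The 9 genes named against untreated day 10 were picked from the 17 that passed the limma test of that difference. The day 6 arrays cancel in it, so the values below restate that test and add no further support. With the 2 groups fitted alone 0 genes passed. The treated change exceeded the untreated one, on the log2 scale, by 3.21 in ADGRL4, 3.21 in TM4SF1, 2.89 in MMP7, 2.68 in LOX, 2.23 in DKK2, 2.21 in COL8A1, 2.16 in PHLDA2 and 2.07 in NT5E. It was lower in HSD3B1, by -1.89.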

How the results depend on the processing

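From day 6, the 1394 calls became 2824 with the pool number as a fixed replicate block and 2538 as a random block. Same-numbered pools of these groups deviated together only weakly (r of 0.096, 0.28 and 0.090). The count was 921 to 1068 with 1 array left out, and the other alternatives gave 1076 to 1912. Against untreated day 10, the 17 calls became 2 with a pseudocount of 1, 10 with probe sets averaged per gene, 34 with the replicate block, 38 with it as random, 4 without pool 2 of the neuroepithelial groups, 37 with the 4 arrays with raised low signals as a term, 0 with the 2 groups fitted alone, and 3 to 13 with 1 array left out. The 17 kept their direction in every setting, with 13 of them tested in the upper 60% of genes. Of the 89 named genes called from day 6, 70 kept the call under every alternative. Some changes from day 6 reversed, none of them a called one but that of SMAD6. With probe sets averaged, SMAD6 gave 0.15, HSD3B1 -0.046, GATA2 -0.065 and RPS27 0.30. TUBB3 gave 0.13 after quantile scaling, 0.15 without pool 2 of the neuroepithelial groups, 0.20 with the array term and -0.31 to 0.15 with 1 array left out (0.12 without day 6 pool 1, 0.15 without treated pool 2). PECAM1 gave -0.054 after quantile scaling, -0.092 without pool 2 of those groups, -0.035 with the array term and -0.092 to 0.40 with 1 array left out, the lowest without treated pool 2. SOX17 ran from -0.31 to 0.074 with 1 array left out, the highest without treated pool 3. The cause of these shifts was not tested.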
